A study of Mus musculus with 15 samples.

Results

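The genes described here mark position along the small intestine. Of 19938 genes measured with a single-symbol probe set, 7 were chosen by name: Amn, Cubn, Osr2, Fabp6 and Slc10a2 as genes of the ileum, the last segment, and Gata4 and Onecut2 as genes of the more proximal intestine. The 7 were found on the array, each with 1 probe set. Like the gene lists below, they were chosen with earlier results of these data known. Shares of all genes given beside them are therefore descriptions and not tests. The 7 genes were followed in epithelial cells peeled from the small intestine of wild-type BALB/c mice, 10 weeks of age, after incubation in 30 mM EDTA for 10 min. The control mice received no agent. The other mice received RANKL, a TNF-family cytokine, as a GST-RANKL fusion protein injected into the peritoneum 2 times daily for 1, 2, 3 or 4 days. Each of the 5 groups had 3 arrays. No group given GST alone was analysed here, so effects of GST, of injection and of RANKL cannot be told apart. The labels do not tell whether arrays that share a group are from different mice, or which length of small intestine each was taken from.

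The small intestine keeps different absorptive programs along its length. The ileum recovers bile acids: SLC10A2 is the sodium-dependent transporter that carries them into the enterocyte from the lumen, and FABP6 binds them in the cytosol. The ileum also takes up vitamin B12 bound to intrinsic factor, through a receptor built from cubilin, which binds the ligand, and amnionless, which anchors cubilin and brings it to the apical membrane. OSR2 is a zinc finger transcription factor. GATA4 is a zinc finger transcription factor of duodenum and jejunum that is known to keep ileal genes such as Slc10a2 and Fabp6 low there, and ONECUT2 is a cut-homeodomain transcription factor of proximal epithelium.

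The deposited intensities had array medians of 147 to 167 and were taken to log2 and quantile normalized. All values below are on that log2 scale, and levels of different genes are not set against each other, since probe sets differ in brightness. Y chromosome genes read 4.88 to 5.50 on every array, and the 7 genes read 7.52 or more, above that level. That level need not be the background of every probe set. The mean of Onecut2, 7.77, was only at the 59th percentile of all genes, while the other members were at the 86.6th or higher. The labelled cell type was borne out by its markers, with Epcam between 11.63 and 11.99, Vil1 between 12.33 and 12.80 and Cdh1 between 11.88 and 12.21 over the 15 arrays. RANKL day 1 replicate 2 stood apart, with the highest median and an interquartile range of 1.95 against 2.26 to 2.55 on the other arrays. The same 3 control arrays enter every comparison with control, so the days are not independent of each other.

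The promoters of Slc10a2 and Fabp6 are shown because the levels of these genes moved together from array to array. The RefSeq promoter table of build GRCm38.p6 held 4 of the 7 genes. Each sequence is the 250 bases before the start of the gene, 5′ to 3′ on its minus strand, at chr8:5105288-5105537 for Slc10a2 and at chr11:43601563-43601812 for Fabp6. Capitals mark matches, on either strand, to 6 words, namely TGATAA and AGATAA for zinc finger factors of the Gata4 family, GTTAAT for HNF1, ATTGATT for ONECUT factors, TTTATG for CDX factors and AGGTCA for a nuclear receptor half-site.
Slc10a2: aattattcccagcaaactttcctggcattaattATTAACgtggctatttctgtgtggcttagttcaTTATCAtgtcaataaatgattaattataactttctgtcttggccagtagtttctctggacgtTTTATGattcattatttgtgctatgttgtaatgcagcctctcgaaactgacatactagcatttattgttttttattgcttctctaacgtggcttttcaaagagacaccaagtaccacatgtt
Fabp6: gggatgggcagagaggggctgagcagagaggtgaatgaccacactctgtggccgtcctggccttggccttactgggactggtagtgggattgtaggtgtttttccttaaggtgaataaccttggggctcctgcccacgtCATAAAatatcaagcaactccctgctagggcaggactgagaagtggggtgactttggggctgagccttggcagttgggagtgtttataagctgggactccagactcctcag
In Slc10a2 the capitals are, in order, a GTTAAT match on the opposite strand at 217 to 212 bases before the start, a TGATAA match on the opposite strand at 184 to 179 and a TTTATG match at 122 to 117. In Fabp6 they are a TTTATG match on the opposite strand at 111 to 106 bases before the start. The matches do not overlap. Windows of the same length held TTTATG in 10.8% of 32851 promoter entries, TGATAA or AGATAA in 16.6% and GTTAAT in 6.43%. The windows of Amn and Cubn held none of the 6 words. A match is a description of the letters and not of binding.

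Of the 5 ileal genes, 3 passed as lower than control after RANKL on at least 1 day, with the most calls on day 3. By limma with Benjamini-Hochberg adjustment over all genes, Osr2 was lower than control on day 2, and Amn, Cubn and Osr2 were lower on day 3. No gene of the 7 was called on day 1 or day 4, and neither proximal gene was called on any day. At an unadjusted p under 0.05 by limma, the 5 ileal and 2 proximal genes gave 2 and 1 on day 1, 3 and 1 on day 2, 5 and 1 on day 3, and 2 and 0 on day 4. Among all genes, 3.94%, 2.57%, 2.96% and 0.908% were called in either direction on days 1 to 4, with 1.05% called lower on day 2 and 1.24% on day 3. At the unadjusted threshold the shares of all genes were 14.9%, 11.9%, 16.2% and 9.66%. Since the 7 genes were chosen with earlier results known, these shares do not test them. The 5 ileal genes lay below their control mean in 4 of 5 cases on day 1 and 5 of 5 on each later day. Their median change was -0.36, -0.48, -0.78 and -0.23 on days 1 to 4, where the median of all genes ran from -0.02 to 0.01. Gata4 lay above its control mean on every day.

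**Figure D1:**
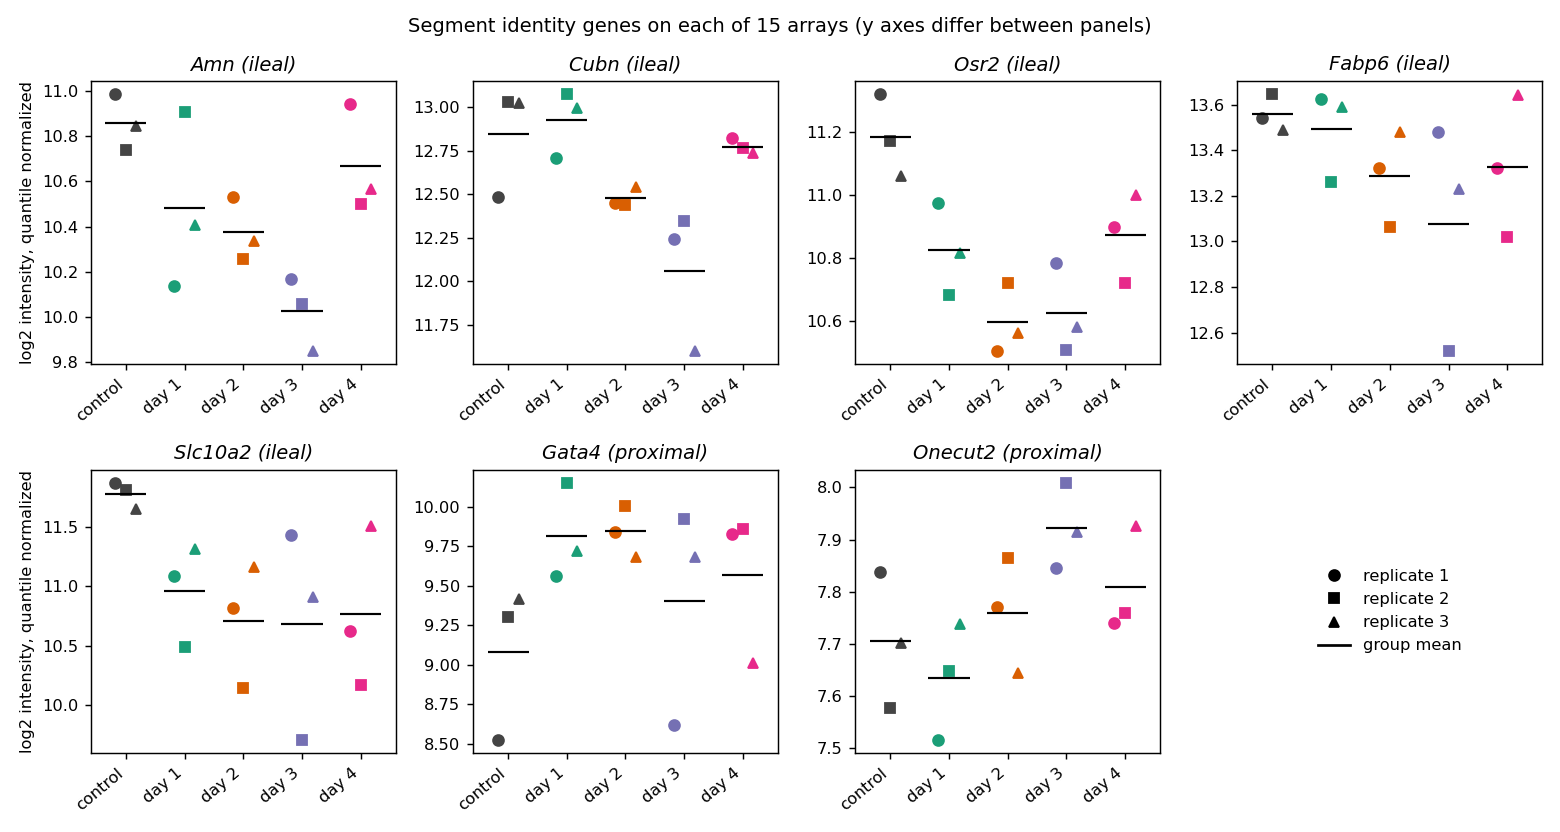
Log2 intensity of each of the 7 genes (1 panel each, y axes differ) in control and on RANKL days 1 to 4; points are arrays, shaped by replicate number, and bars are group means of 3 arrays. Osr2 and Slc10a2 read lower on the 12 RANKL arrays than on any control array, as did 0.848% of all genes. Gata4 and Slc10a2 spread widely within groups.

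Osr2, the ileal transcription factor, was below control on every RANKL array. It read 11.32, 11.17 and 11.06 in control and 10.97, 10.68 and 10.82 on day 1. It then read 10.51, 10.72 and 10.56 on day 2, 10.78, 10.51 and 10.58 on day 3, and 10.90, 10.72 and 11.00 on day 4. The 12 RANKL arrays therefore lay below the 3 control arrays without overlap, a separation that 0.848% of all genes showed in this direction. Osr2 fell by 0.59 on day 2 (SE 0.11, n = 3 arrays per group, limma adjusted p = 0.00801; 1.50-fold lower) and by 0.56 on day 3 (SE 0.11, limma adjusted p = 0.0121). The changes on day 1 (-0.36, limma adjusted p = 0.0856) and day 4 (-0.31, limma adjusted p = 0.309) did not pass. The call on day 2 held without each array in turn but not with median centring (0.065). The call on day 3 was lost with median centring (0.103) and without control replicate 1 (0.0509), RANKL day 3 replicate 2 (0.0585) or RANKL day 3 replicate 3 (0.0634). In order of level the groups ran control, day 4, day 1, day 3 and day 2. Control was separated from day 4, which was lower, as in 6.16% of all genes, and each later pair of neighbours overlapped. A comparison of the mean of the 4 RANKL groups with control, added after the values were seen, gave -0.45 ± 0.08 (SE, limma adjusted p = 0.00732), where 1.6% of all genes were called lower. That call was lost without control replicate 1 (0.0627) and with median centring (0.0561). The moderated F test over the 4 days also called Osr2 (limma adjusted p = 0.0248), as it did 3.6% of genes, a call lost without control replicate 1 (0.0944), control replicate 2 (0.0828), RANKL day 2 replicate 1 (0.0612) or RANKL day 3 replicate 3 (0.0568), and with the values as deposited (0.0547) or median centring (0.105).

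Amn and Cubn, the subunits of the vitamin B12 receptor, were lowest on day 3 and were not called against control on day 4. The day 4 changes were -0.19 for Amn (95% interval -0.55 to 0.18) and -0.07 for Cubn (95% interval -0.46 to 0.31). Amn read 10.99, 10.74 and 10.84 in control, then 10.14, 10.90 and 10.41 on day 1 and 10.53, 10.26 and 10.34 on day 2. On day 3 it read 10.17, 10.06 and 9.85, and on day 4 10.94, 10.50 and 10.56. On day 3 no array reached the level of any control or day 2 array, as in 9.9% of all genes against control and 5% against day 2. Amn fell by 0.83 on day 3 (SE 0.17, n = 3 arrays per group, limma adjusted p = 0.0185; 1.78-fold lower). That call was lost without control replicate 1 (0.0712), control replicate 3 (0.0653), RANKL day 3 replicate 2 (0.055) or RANKL day 3 replicate 3 (0.0994), and with an ordinary statistic in place of limma's (0.0641). On day 1 the array that stands apart, replicate 2, read highest of its group for Amn. Without it the change of Amn on day 1 was -0.58 and called (limma adjusted p = 0.0363), against -0.37 with it (0.326). The mean of the 4 RANKL groups, a comparison added after the values were seen, differed from control by -0.47 (SE 0.13) and did not pass (limma adjusted p = 0.0759). Nor did the F test (limma adjusted p = 0.0713), which gained a call in 6 of 23 alternatives. The order of the group means was control, day 4, day 1, day 2 and day 3, and of neighbouring groups only day 2 and day 3 did not overlap.

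Cubn read 12.49, 13.03 and 13.02 in control and 12.71, 13.08 and 12.99 on day 1. It read 12.45, 12.44 and 12.54 on day 2, 12.24, 12.34 and 11.60 on day 3, and 12.82, 12.76 and 12.74 on day 4. Control replicate 1 was low among the controls, and RANKL day 3 replicate 3 was the lowest of all. Cubn fell by 0.78 on day 3 (SE 0.18, n = 3 arrays per group, limma adjusted p = 0.0328; 1.72-fold lower), a call lost without control replicate 2 (0.111), control replicate 3 (0.127) or RANKL day 3 replicate 3 (0.118). Median centring (0.0527) ended it too, as did an ordinary statistic (0.0928) and fitting control and day 3 alone (0.117). Its F test lay at the threshold (limma adjusted p = 0.04999), a call lost on leaving out any 1 of 12 of the 15 arrays, with adjusted p then between 0.0629 and 0.102. From highest to lowest the groups stood as day 1, control, day 4, day 2 and day 3. Day 4, day 2 and day 3 did not overlap with their neighbours among themselves, while day 1, control and day 4 did. Day 3 lay below day 2 in 5% of all genes, and the share for day 2 below day 4 was not taken.

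On day 4 the receptor genes stood higher than on day 3, Amn by 0.64 ± 0.17 and Cubn by 0.71 ± 0.18 (SE, n = 3 arrays per group), with every day 4 array above every day 3 array, as in 8.5% of all genes. Neither difference passed across all genes (limma adjusted p = 0.315 and 0.277), and only 0.015% of genes were called between these days. With arrays weighted by their spread, where 228 genes were called, both passed (0.015 and 0.0166). By limma, no gene of the 7 was called between day 1 and day 2, where 0.201% of genes were, or between day 2 and day 3. That last comparison called 0% of genes by limma, with 961 at an unadjusted p under 0.05.

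Slc10a2, the bile acid uptake transporter, lay farthest below control in mean of the 7 genes on each day but did not pass the test on any. In control it read 11.87, 11.81 and 11.65, a narrow range. After RANKL it read 11.08, 10.49 and 11.31 on day 1, 10.82, 10.15 and 11.16 on day 2, 11.43, 9.71 and 10.91 on day 3, and 10.63, 10.17 and 11.51 on day 4. Like those of Osr2, the 12 RANKL arrays of Slc10a2 lay below all control arrays. On days 1 to 4, 8.51%, 9.44%, 9.9% and 6.16% of all genes had their RANKL arrays below all controls. The changes were -0.81, -1.07, -1.09 and -1.01 on days 1 to 4 (SE 0.41, n = 3 arrays per group; limma adjusted p = 0.399, 0.273, 0.199 and 0.448). Their 95% intervals were wide, from -1.98 to -0.21 on day 3. The SD of Slc10a2 within groups was 0.583, larger than or equal to that of 99.6% of genes. It was 0.117 among controls and 0.423 to 0.881 in the RANKL groups. The mean of the 4 RANKL groups differed from control by -0.995 (SE 0.33, 95% interval -1.70 to -0.29; limma adjusted p = 0.121). The RANKL group means followed each other as day 1, day 4, day 2 and day 3, each overlapping the next.

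Fabp6, the cytosolic bile acid binding protein, was lower than control in group mean on each day by smaller amounts. Its mean, 13.35, was at the 99.9th percentile of all genes, and whether the signal flattens at that level was not tested. It read 13.54, 13.65 and 13.49 in control and 13.62, 13.26 and 13.59 on day 1. It read 13.32, 13.06 and 13.48 on day 2, 13.48, 12.52 and 13.23 on day 3, and 13.32, 13.02 and 13.64 on day 4. The RANKL arrays lay below all controls on day 2 and day 3, as in 9.44% and 9.9% of all genes, and overlapped with them on day 1 and day 4. The changes of -0.07, -0.27, -0.48 and -0.23 on days 1 to 4 were not called (SE 0.21, n = 3 arrays per group; limma adjusted p = 0.938, 0.739, 0.279 and 0.795). The group order was control, day 1, day 4, day 2 and day 3, and all neighbours overlapped. RANKL day 3 replicate 2 held the lowest value of both Fabp6 and Slc10a2. Without it the day 3 means moved closer to control, to -0.20 for Fabp6 and -0.61 for Slc10a2.

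**Figure D2:**
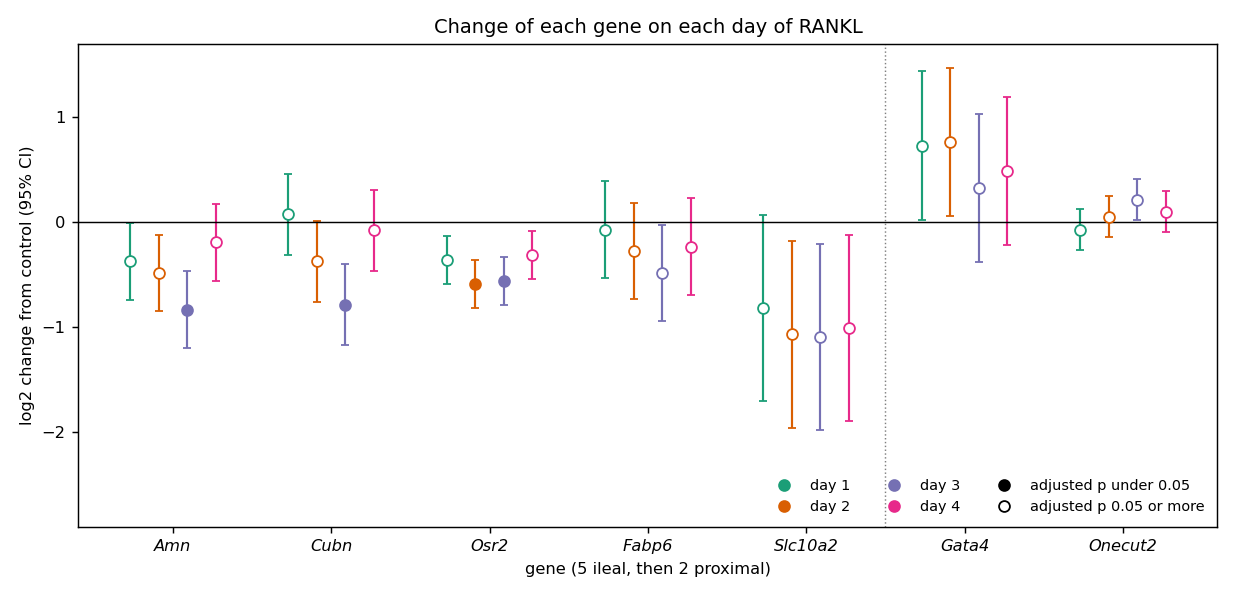
Log2 change from control with its 95% confidence interval (y axis) for each gene (x axis) on RANKL days 1 to 4, n = 3 arrays per group; filled points passed limma's adjusted p of 0.05. Filled points are Osr2 on day 2 and Amn, Cubn and Osr2 on day 3, while the widest intervals belong to Slc10a2 and Gata4.

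The proximal factor Gata4 was higher in group mean after RANKL, within a wide spread. It read 8.53, 9.30 and 9.41 in control, 9.56, 10.15 and 9.72 on day 1 and 9.84, 10.01 and 9.68 on day 2. On day 3 it read 8.62, 9.92 and 9.68, and on day 4 9.83, 9.86 and 9.01. The arrays of days 1 and 2 lay above all controls, as 6.08% and 8.09% of genes did, and those of days 3 and 4 overlapped with the controls. The changes were 0.73, 0.76, 0.33 and 0.49 (SE 0.33, n = 3 arrays per group; limma adjusted p = 0.31, 0.352, 0.714 and 0.705). Its SD within groups, 0.461, was at the 99th percentile of all genes. The groups ran day 2, day 1, day 4, day 3 and control from high to low, with overlap at each step.

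Onecut2 lay nearest to control of the 7 genes on days 2 and 3, while Fabp6 was nearer on day 1 and Cubn on day 4. Its 15 values lay between 7.52 and 8.01, with a mean at the 59th percentile of all genes, the lowest of the 7. Whether a change would show less at that level was not tested. Control arrays read 7.84, 7.58 and 7.70, and the highest group, day 3, read 7.85, 8.01 and 7.91. Day 3 lay above all controls, as 12.3% of genes did, by 0.22 ± 0.09 (SE, n = 3 arrays per group, limma adjusted p = 0.247). On days 1, 2 and 4 the changes were -0.07, 0.05 and 0.10, with adjusted p of 0.787 or more by limma. Its 95% intervals on these days lay between -0.27 and 0.30. Neighbouring groups overlapped throughout.

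Array by array, Fabp6 and Slc10a2 varied together, and Slc10a2 varied opposite to Gata4. Over the 15 arrays Fabp6 and Slc10a2 correlated with Pearson r = 0.895 (permutation p = 1e-05, the smallest that 100000 permutations can give; adjusted over 21 pairs 0.00021) and Spearman rho = 0.857 (permutation p = 8e-05). Slc10a2 and Gata4 correlated negatively, with r = -0.764 (permutation p = 0.0009, adjusted 0.00945) and rho = -0.907 (permutation p = 1e-05). Without the 2 arrays farthest from the median of the first gene the values were 0.847 and -0.772. Since groups also differ in mean, deviations from the group means were compared as well. On these, r was 0.977 for Fabp6 with Slc10a2 (permutation within groups p = 0.0007, adjusted 0.0147) and -0.791 for Slc10a2 with Gata4 (permutation within groups p = 0.00181, adjusted 0.019). With replicate number also taken out, Slc10a2 with Gata4 did not pass (r = -0.770, approximate adjusted permutation p = 0.162). Fabp6 with Slc10a2 still did (r = 0.958, approximate adjusted permutation p = 0.0155). Fabp6 with Gata4 did not pass by Pearson r, at -0.545 over all arrays (permutation p = 0.037, adjusted 0.0776) and -0.741 within groups (adjusted permutation p = 0.154), and passed by Spearman rho, at -0.742 (permutation p = 0.00225, adjusted 0.0109). In 5 of 5 groups, the array lowest in Slc10a2 was also lowest in Fabp6 and highest in Gata4. That array was replicate 2 in each RANKL group and replicate 3 in control. The permutations within groups treat the arrays of a group as exchangeable, which a factor shared by replicate number would break. The adjustment over 21 pairs does not cover the choice of the genes with earlier results known.

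**Figure D3:**
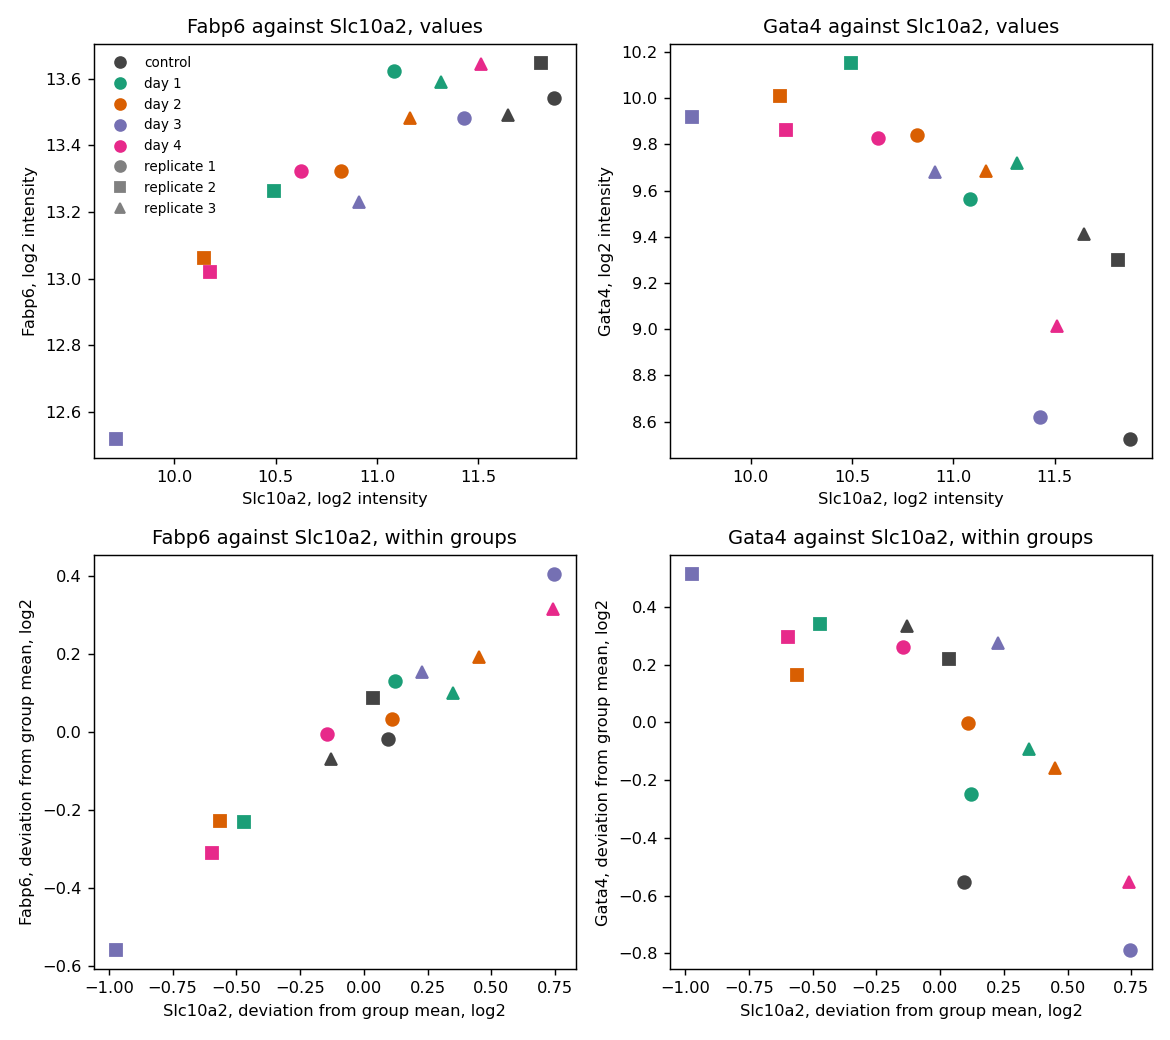
Fabp6 (left) and Gata4 (right) against Slc10a2 on 15 arrays, as log2 intensity (top) and as deviations from the group mean (bottom); colours are groups and shapes are replicate numbers. Fabp6 rose with Slc10a2 (r = 0.977 within groups) and Gata4 was lower where Slc10a2 was higher (r = -0.791 within groups).

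Of the 21 pairs among the 7 genes, 6 passed an adjusted permutation p of 0.05 by Pearson r and 8 by Spearman rho. Within groups the pairs that passed were the 2 with Slc10a2 already given, of which Slc10a2 with Gata4 did not pass once replicate number was taken out. Amn and Cubn, whose products form 1 receptor, correlated at r = 0.708 over all arrays (permutation p = 0.00237, adjusted 0.0153; rho = 0.675, permutation p = 0.00746) but at 0.342 within groups (permutation p = 0.226). Without the 2 arrays farthest from the median of Amn their r was 0.753. Without RANKL day 3 replicate 3 it was 0.578 and did not pass (adjusted permutation p = 0.0986). No relation of the receptor genes with Slc10a2 passed within groups, where r was -0.125 for Amn with Slc10a2 and -0.245 for Cubn with Slc10a2 (permutation p = 0.691 and 0.659). Osr2 correlated with Slc10a2 at r = 0.717 over all arrays (permutation p = 0.00291, adjusted 0.0153; rho = 0.732, permutation p = 0.00259) and with Gata4 at -0.656 (permutation p = 0.00767, adjusted 0.0322; rho = -0.682, permutation p = 0.00653). Leaving out the 2 arrays farthest from the median of Osr2 took these to 0.570 and -0.454. Within groups r was 0.531 with Slc10a2 and -0.7765 with Gata4, and neither passed (adjusted permutation p = 0.359 and 0.054). The other pair that passed by Pearson r was Osr2 with Fabp6, at 0.623 (permutation p = 0.0115, adjusted 0.0401; rho = 0.734, permutation p = 0.00242; 0.604 without the 2 farthest arrays). Within groups its r was 0.570 and did not pass (adjusted permutation p = 0.315). These calls rest on few arrays. Without RANKL day 3 replicate 2, or without RANKL day 3 replicate 3, 3 pairs passed. Without the former the adjusted permutation p was 0.0503 for Osr2 with Slc10a2, 0.0622 for Osr2 with Gata4 and 0.0803 for Osr2 with Fabp6. The pair Osr2 and Gata4 was also lost without control replicate 1 (0.153) or RANKL day 3 replicate 3 (0.0527), and with median centring (0.0579). The pair Osr2 and Fabp6 was lost on leaving out any 1 of 8 arrays, with adjusted permutation p of 0.0501 to 0.0971.

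Among other genes of the bile acid route, those that passed were lower. Of 14 genes of bile acid handling and its receptor FXR, 1 was lower on day 1, 2 on day 2, 2 on day 3 and none on day 4 by limma, and none was higher. These are 7.14%, 14.3%, 14.3% and 0% of the list, where 3.94%, 2.57%, 2.96% and 0.908% of all genes were called. At an unadjusted p under 0.05 by limma the counts were 7, 6, 9 and 5, where 14.9%, 11.9%, 16.2% and 9.66% of all genes passed. On days 1 to 4, 10, 8, 11 and 9 of the 14 lay below control. Nr0b2, the repressor that FXR induces, fell by 1.17 on day 1 (SE 0.22, n = 3 arrays per group, limma adjusted p = 0.00831; 2.26-fold lower) and by 0.95 on day 2 (limma adjusted p = 0.0374). Rxra, the partner receptor of FXR, fell by 0.43 on both day 2 and day 3 (limma adjusted p = 0.039 and 0.0371). Abcg5, a sterol efflux transporter gene, fell by 0.58 on day 3 (limma adjusted p = 0.0294). The median change of the list was -0.28, -0.17, -0.39 and -0.14 on days 1 to 4. For vitamin B12 handling and cubilin partners, 13 genes were measured. Abcc1, an export pump, was higher on each day, by 1.02, 0.80, 0.96 and 0.64 on days 1 to 4 (limma adjusted p = 0.000174, 0.00159, 0.000406 and 0.0157), and no other gene of that list passed.

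The wider segment programs were read from gene lists. The distal list is not separate from the bile acid list, since Slc51a, Slc51b and Fgf15 are in both. Of 37 measured genes of distal enterocytes, other than the members, 8 (21.6%) were lower and none higher on day 3. Of all genes 2.96% were called on that day, and the median change of the list was -0.40. On day 3, 35 of the 37 lay below the control mean. Ocm fell by 1.19 (limma adjusted p = 0.0236), the brush border metalloprotease gene Mep1a by 0.99 (0.0352), Phgr1 by 0.82 (0.0455) and the aspartoacylase gene Aspa by 0.68 (0.00531). On day 1, Phgr1 was lower by 0.89 and Nostrin higher by 0.55, and none of the list passed on day 2 or day 4 by limma, where 14 and 8 had an unadjusted p under 0.05. Of 43 proximal enterocyte genes, 1, 3, 1 and 3 were higher and 6, 2, 2 and 0 lower on days 1 to 4, with medians of -0.15, 0.12, 0.00 and 0.27. Calls were 16.3%, 11.6%, 6.98% and 6.98% of that list, against 3.94%, 2.57%, 2.96% and 0.908% of all genes. The steroid dehydrogenase gene Hsd17b6 rose by 2.30, 2.10 and 2.58 on days 2 to 4 (limma adjusted p = 0.00932, 0.0179 and 0.00839). Ms4a10 rose by 1.18 on day 2 and by 1.11 on day 4 (0.0155 and 0.0471). Of the cytochrome P450 genes, Cyp2c65 was lower on days 1 to 3, with changes of -2.24, -2.06 and -1.996, and Cyp3a25 likewise, with -1.32, -1.44 and -1.60. Both belong to families of near-identical copies, so these values are uncertain. Of 14 duodenal genes 0, 0, 1 and 1 were higher and 2, 1, 2 and 1 lower on days 1 to 4, and of 9 colonic enterocyte genes 0, 1, 1 and 0 were higher and 2, 2, 1 and 0 lower. Calls were 14.3%, 7.14%, 21.4% and 14.3% of the duodenal list and 22.2%, 33.3%, 22.2% and 0% of the colonic list. Of 4 distal enteroendocrine hormone genes, 1 was called, Gcg, which rose by 1.03 on day 4. Of 19 measured transcription factor genes of segment or enterocyte fate, among them Gata5, Gata6, Cdx1, Cdx2 and Hnf4a, none passed on any day by limma. At an unadjusted p under 0.05 by limma the counts were 3, 3, 1 and 0 on days 1 to 4. Of all genes 14.9%, 11.9%, 16.2% and 9.66% reached that threshold on these days.

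Within groups, most distal enterocyte genes correlated positively with Slc10a2 and most proximal ones negatively. The Pearson r of deviations with Slc10a2 had a median of 0.41 over the 37 distal genes and -0.50 over the 43 proximal genes, against 0.08 over all genes. It was positive for 75.7% of the distal, 11.6% of the proximal and 58.1% of all genes. Positive medians were not particular to distal genes, with 0.71 for goblet, 0.41 for B and plasma, 0.39 for tuft and 0.36 for myeloid markers. Intraepithelial lymphocyte (0.27) and enteroendocrine markers (0.09) were positive too. Stem and cycling (-0.29), M cell (-0.10), stromal (-0.09) and Paneth cell markers (-0.007) were negative. Of the distal genes 16 (43.2%) had r over 0.5, where 10.9% of all genes did, and 3 had r under -0.5. Among the 16 were Tmigd1 (0.935), the sulfate transporter gene Slc13a1 (0.919) and the bile acid export subunits Slc51b (0.803) and Slc51a (0.794). Of the proximal genes 22 had r under -0.5, where 818 of 19937 genes did, and 1 had r over 0.5. Among the 22 were the neprilysin gene Mme (-0.792), the glucose transporter gene Slc2a2 (-0.778), the lactase gene Lct (-0.751) and Fabp1 (-0.729). These are descriptions over 15 arrays that share groups and scaling, with no test, and the genes named were chosen after their values were seen. Nr1h4, which encodes FXR, had r of 0.825. The duodenal list had a median of 0.02 over 14 genes. Amn, also an ileal gene, did not divide the lists in this way, with a median r of 0.15 over the distal and 0.26 over the proximal genes. For Gata4 the medians were -0.11 and 0.68.

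**Figure D4:**
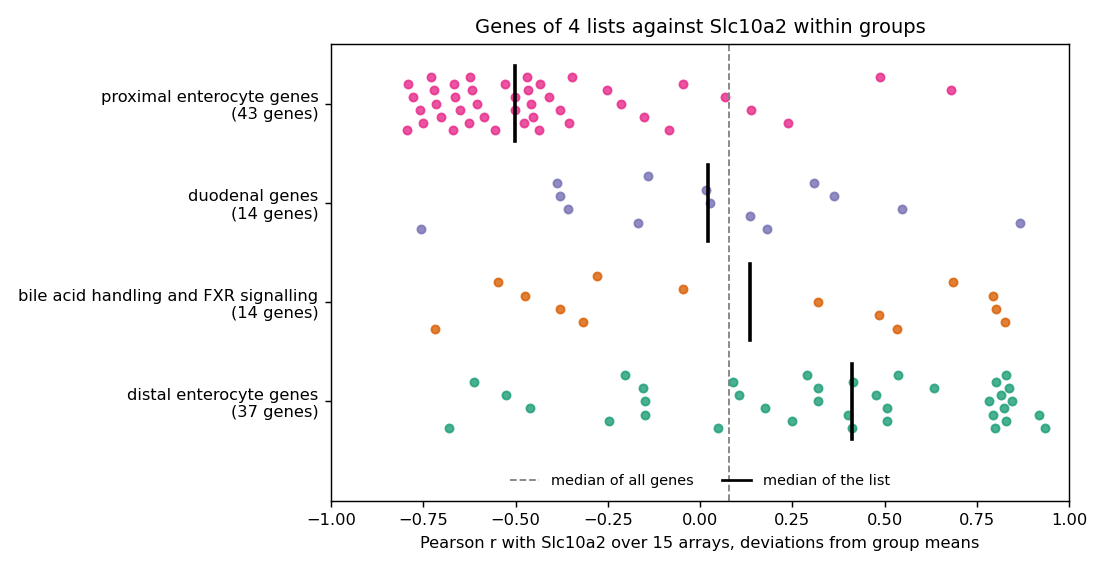
Pearson r of each gene with Slc10a2 (x axis) over 15 arrays, on deviations from the group means, for 4 gene lists (rows); points are genes, black bars list medians and the dashed line the median of all genes, 0.08. Proximal enterocyte genes lie mostly below 0 and distal enterocyte genes mostly above it.

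Across all groups, the genes most like each member were sought among 11222 others with a mean of 7 or more. Slc10a2 was followed most closely by Tmigd1 (r = 0.907), the claudin gene Cldn2 (0.898) and Slc25a48 (0.896), and Fabp6 by Slc25a48 (0.900), Slc10a2 and Tmigd1 (0.890). Gata4 was nearest to B4galt6 (0.925), Polr3e (0.913) and the amino acid transporter gene Slc7a8 (0.912). Amn was nearest to Cyp4f13 (0.946), Cyp2u1 (0.918) and Chd3 (0.915), and Cubn to Gab1 (0.898), Ttll3 (0.872) and Cers6 (0.857). Osr2 was nearest to Ttc36 (0.902), Mpst (0.900) and Tcea3 (0.891), and Onecut2 to Tmem63a (0.783), Msln (0.778) and Kcnn4 (0.759). These r values were each chosen as the highest of many.

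Markers of other cells were read beside these results. Of all genes 3.94%, 2.57%, 2.96% and 0.908% were called by limma on days 1 to 4. At an unadjusted p under 0.05 by limma the shares were 14.9%, 11.9%, 16.2% and 9.66%. Of 12 enterocyte and epithelial markers none was called on any day by limma (1, 2, 1 and 0 at an unadjusted p under 0.05), and the mean level of the list lay between 12.67 and 12.82 on control arrays and between 12.59 and 12.80 on RANKL arrays. M cell markers, which RANKL is known to induce, were higher in 8, 10, 10 and 9 of 10 on days 1 to 4. Their mean level was 8.26 to 8.33 on control arrays, and after RANKL 9.78 to 10.10 on day 1, 10.71 to 10.86 on day 2, 10.33 to 10.69 on day 3 and 9.55 to 10.09 on day 4. Stem and cycling cell markers were higher in 1 of 7 on day 1 and in none later by limma (2, 2, 6 and 3 at an unadjusted p under 0.05, and 7 of 7 above control on day 3), with median changes of 0.25, 0.43, 0.60 and 0.24. Tuft cell markers were higher in 3, 4 and 7 of 7 on days 2 to 4. Enteroendocrine markers were higher in 2 of 7 on day 4, and Paneth cell markers were lower in 1 of 6 on day 2. Of 8 intraepithelial lymphocyte markers none was called by limma (1, 0, 0 and 5 at an unadjusted p under 0.05), while 8 of 8 lay below control on days 1 and 4, with a mean level of 9.41 to 9.76 on control arrays and 8.88 to 9.31 on day 4. Myeloid markers were called in 1 of 7 on day 1 (lower) and 1 on day 2 (higher), stromal markers in 1 of 10 on day 1 (lower), and B and plasma cell markers in 0 of 5 on any day by limma, also at an unadjusted p under 0.05. Of 7 goblet cell markers none was called on any day by limma (1, 2, 1 and 0 at an unadjusted p under 0.05), and 7 of 7 correlated positively with Slc10a2 within groups (median r = 0.709). The part of these cells in the changes of the 7 genes was not tested. In bulk RNA, fewer cells of a type and less RNA per cell cannot be told apart. The share of ileum among the cells of each array was not measured.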

How the data were processed

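Biotin-labelled total RNA was measured on 15 Affymetrix arrays. The deposited values are linear intensities of 28853 probe sets, made by the authors with a summarisation and normalization not given in the sources used here. The submitters' processing notes name build mm9. Intensities were taken to log2 (pseudocount 0) and quantile normalized. A single gene symbol was given for 21789 probe sets, several for 1621 and none for 5443. The brightest probe set represented each of 19938 genes. One limma 3.58.1 model (R 4.3.3) estimated each group's mean from the 15 arrays together, leaving 10 residual degrees of freedom. P-values were adjusted by Benjamini-Hochberg over all genes, and 0.05 was the two-sided threshold for a call. The fit was also run on simulated normal values, with the same spread for a gene in every group. That setting does not cover genes such as Slc10a2, whose spread differed between groups. Correlations used 100000 two-sided permutations, adjusted over 21 pairs. The 7 genes and 20 gene lists were chosen with earlier results of these data known. From each list described, up to 4 called genes with the largest change could be named. The alternatives were other scalings, an offset of 16, a filter on the dimmest 40% of genes, other probe set rules, priors, array weights, a replicate block, fits of the compared groups alone, an ordinary statistic, and leaving out each array. The p-values reflect only how far these samples differ, which may be technical, and the number of arrays limits the precision.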

Additional observations from a re-analysis of the deposited data

How the results depend on the processing

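Of 84 single values under 1995 alternatives, 1908 kept their side of the threshold, 63 lost a call and 24 gained one, and no called value changed sign. With median centring the count of the 7 genes called was 0 on day 2, 1 on day 3 and 1 by the F test, against 1, 3 and 2. The ordinary statistic called 1 on day 3, Osr2. The F test called 1 with an offset of 16, with the mean of probe sets and with the replicate block, in each case because Cubn lay at the threshold. Array weights called 2 between day 4 and day 3. For the mean of the 4 RANKL groups, a comparison chosen after seeing the data, the count was 2 against 1 with the values as deposited, without the dimmest genes, with array weights and with the replicate block. The added call was Amn in the first 3 (limma adjusted p = 0.0469, 0.0481 and 0.0433) and Slc10a2 with the replicate block (limma adjusted p = 0.0269). Leaving out each array in turn gave 0 to 1 called genes on day 1, 1 to 1 on day 2, 0 to 3 on day 3, 0 to 0 on day 4, 0 to 2 for that mean, 0 to 3 by the F test and 3 to 7 correlated pairs. Deviations from group means left 2 pairs of 6. The replicate block left 1, Fabp6 with Slc10a2 (r = 0.958, adjusted permutation p = 0.0155), while Slc10a2 with Gata4 had r = -0.770 and an adjusted permutation p of 0.162. The permutations for this block kept the groups but not the replicate numbers, so these p-values are approximate. Same-numbered arrays of different groups correlated in their deviations at -0.203 to 0.503, with a median of 0.144 against -0.0748 for other numbers. Since only 19 of the 30 pairs were over 0.1, and the labels tie the numbers to nothing shared, the numbers were not taken as pairs. Yet 12 of 15 arrays were most like one of their own number, so the numbers may share something that the main fit does not take up. With the replicate block 1052, 635, 712 and 216 genes were called on days 1 to 4, against 785, 513, 590 and 181. The F test called 968 genes with the block, against 718. Over all genes the number called moved by over 1.5 times under several settings. On days 1, 2, 3 and 4 it was 785, 513, 590 and 181, against 480, 311, 257 and 169 with median centring, 540, 320, 324 and 107 with the ordinary statistic, 1517, 930, 1322 and 307 with array weights, and 269, 455, 524 and 145 in fits of the compared groups alone; day 3 called 378 with the values as deposited. Leaving out 1 array gave 236 to 1188 on day 3. The cause of these changes was not tested where none is named.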

Other observations

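The ferroportin gene Slc40a1, an iron exporter listed with the duodenal genes, correlated with Slc10a2 at r = 0.867 within groups, the highest of its list, whereas the incretin gene Gip of the same list stood at -0.756. Among proximal enterocyte genes Prap1 went the other way from most of its list (0.679), and among distal enterocyte genes Abcb1a did (-0.681). The apical efflux pump gene Abcc2 had the lowest r of the bile acid list (-0.718). These genes were chosen after their values were seen, and none of these values was tested.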
